A study of Homo sapiens with 6 samples.

Results

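Genes of the vacuolar proton pump and of the lysosomal membrane were examined after silencing of OCRL in HK2, an immortalised epithelial cell line from the human renal proximal tubule. The list held 36 genes, namely 8 of the membrane sector of the pump (V0), 10 of its cytosolic sector (V1), 2 of its accessory subunits and 16 of other lysosomal or endosomal membrane proteins. A member was measured where a probe set carried its symbol and no other, and where a gene had several, the brightest on average over the 6 arrays stood for it. This gave 31 members among 11963 genes, with 63 probe sets in all and more than 1 probe set for 16 members. ATP6V0A4, ATP6V1F, CD68, TMEM192 and PIP4P2 had no such probe set and were not analysed here. RNA came from 3 cultures treated with OCRL siRNA and 3 treated with a non-targeting siRNA as control, from independent experiments. Transfection with the reagent Dharmafect 4 was done at 30% confluence and lasted 96 h in both groups, and the medium held insulin, transferrin and selenium. Each sample was read on 1 Affymetrix array, and values are log2 intensities.

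The vacuolar ATPase, or V-ATPase, is a rotary pump that acidifies endosomes, lysosomes, the Golgi and secretory vesicles. Its V1 sector hydrolyses ATP on the cytosolic side and turns a rotor that drives protons through the V0 sector in the membrane. Chloride-proton exchangers balance the charge, heavily glycosylated proteins such as LAMP1 and LAMP2 line the inner face of the lysosomal membrane, and transporters carry cholesterol, cystine and calcium out of the lumen. In the proximal tubule this acidification serves the recycling of endocytic receptors and the breakdown of filtered protein. OCRL removes a phosphate from membrane phosphoinositides of the endolysosomal system. Mutation of OCRL causes Lowe syndrome and a form of Dent disease, another form of which is caused by mutation of the exchanger gene CLCN5.

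The knockdown was visible in every array. The brighter OCRL probe set was at 7.52, 7.49 and 7.40 in OCRL siRNA cells, against 9.49, 9.48 and 9.51 in control cells (log2 difference -2.02, SE 0.048, limma adjusted p = 1.24e-05). The dimmer one was at 6.42, 6.77 and 6.70 in OCRL siRNA cells, against 7.52, 7.72 and 7.66 in control cells. With 20 ways to assign the arrays, the exact permutation p (two-sided) was 0.10, the smallest that 3 against 3 arrays allow. All knockdown arrays received the same siRNA, so other effects of that siRNA and the fall of OCRL cannot be told apart. Array medians were 7.27 to 7.30 in OCRL siRNA cells and 7.23 to 7.24 in control cells. Across probe sets, which are not independent, arrays of 1 group correlated at r of 0.998 to 0.999, and arrays of different groups at 0.994 to 0.995.

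After OCRL knockdown, 7 of the 31 measured members rose, 2 fell and 22 did not pass at an adjusted p under 0.05. The genes that rose were NPC1, CLCN5, CTNS, SCARB2 and MCOLN1 among the lysosomal membrane proteins and ATP6V0B and ATP6V0E1 in the V0 sector, and those that fell were CLCN3 and ATP6V0A2. All changes were small, between 1.14-fold and 1.48-fold, and 0 of the called members reached 1.5-fold. Over all 11963 genes 26.0% were called, 15.5% higher and 10.5% lower, and among genes above the median level 38.7% were called (23.7% higher and 15.1% lower), so the members' share of 29.0% was near the background. Members were bright, with a median level of 10.65 against 7.94 over all genes. At an unadjusted p under 0.05 in limma there were 15 members, 12 higher and 3 lower. The share over all genes was 38.5% (21.8% higher and 16.7% lower), and over genes above the median level 52.8% (31.4% higher and 21.4% lower). The groups did not overlap in 20 members, 14 higher and 6 lower. Over all genes this held for 44.9% (25.1% higher and 19.8% lower), and over genes above the median level for 64.4% (37.4% higher and 27.0% lower). The median log2 difference of the members was 0.08, beside 0.00050 over all genes. By sector it was -0.02 for V0, -0.03 for V1, -0.02 for the accessory subunits and 0.14 for the other membrane proteins. After centring each array on its median, 6 members were higher and 3 lower: MCOLN1 lost its call and OSTM1 was called lower. Over all probe sets the same centring turned 2939 higher and 2198 lower calls into 2274 and 3138. In these cultures, fewer cells of a kind and less RNA per cell cannot be told apart.

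**Figure D1:**
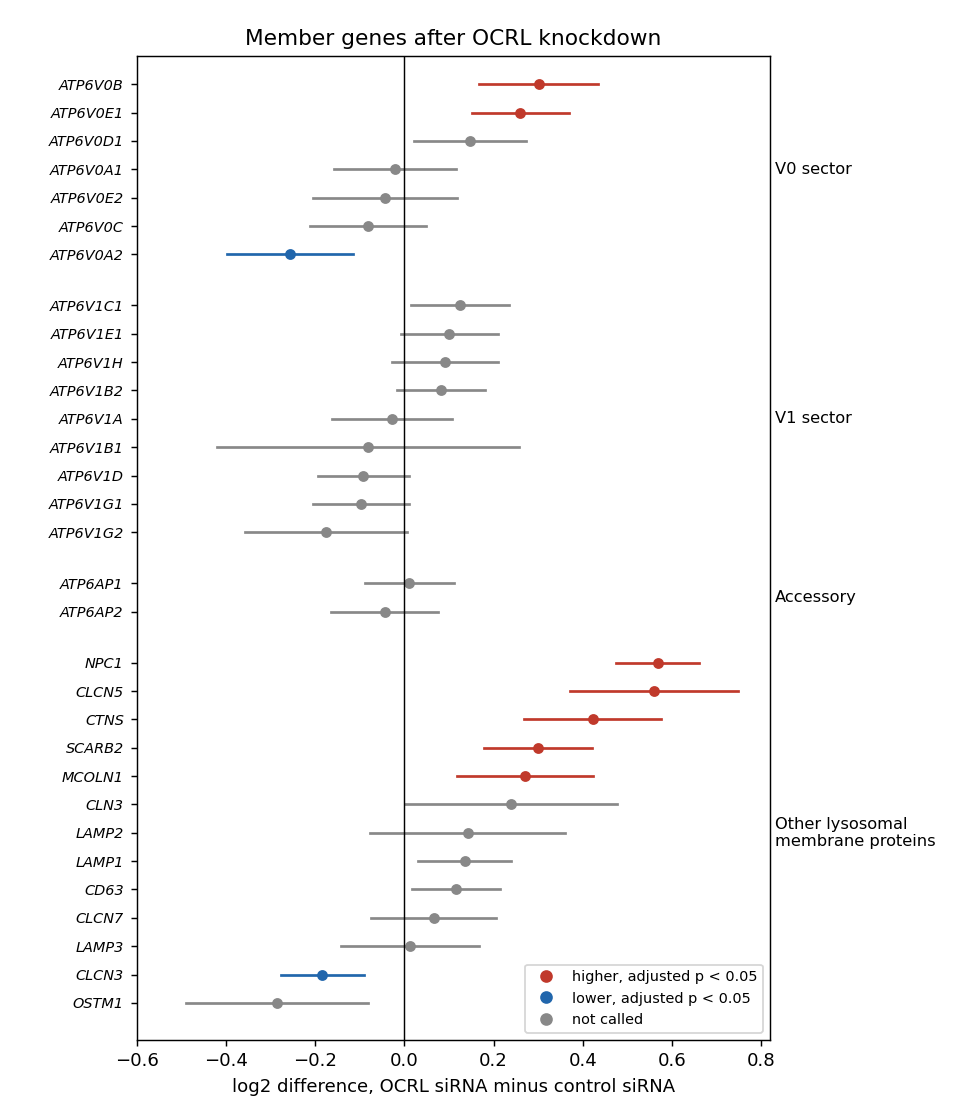
Log2 difference, OCRL siRNA minus control siRNA, of the 31 measured members by role; points are limma estimates and lines their 95% confidence intervals, 3 arrays per group. The 5 rises at the top of the other membrane proteins lie between 0.27 and 0.57, whereas the 9 V1 subunits lie between -0.18 and 0.13.

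Promoter sequences were set beside these calls, because many lysosomal genes are known to carry an E-box that the MiT/TFE transcription factors, TFEB among them, bind. Windows of 300 bases, from 250 bases before to 50 bases after each annotated start, were taken from RefSeq (GRCh38.p14) and matched by symbol for 24 of the 31 measured members. The 6-letter core CACGTG, which reads the same on both strands, was present in at least 1 window of 10 of these 24 members (41.7%), beside 1144 of the 9563 array genes with a window (12%) and 7.26% of all 35116 windows. The longer TCACGTG, searched on both strands and by construction a subset of the core, was present in 9 of the 24 members (37.5%) and in 6.65% of the array genes. The core was found in 3 of 6 members that rose, in 0 of 2 that fell and in 7 of 16 that did not pass, and in 15.9% of the array genes called higher. By role it was found in 3 of 6 V0 genes, 1 of 5 V1 genes, 0 of 2 accessory genes and 6 of 11 other membrane protein genes. These counts are descriptions of letters, with no test, and a match is not a binding site.

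The 250 bases before the start are shown for the 3 members that rose and carry the core, with CACGTG in capitals. RefSeq gives 3 windows for CLCN5, and the one with a match is shown.
ATP6V0B (chr1:43974710-43974959, plus strand): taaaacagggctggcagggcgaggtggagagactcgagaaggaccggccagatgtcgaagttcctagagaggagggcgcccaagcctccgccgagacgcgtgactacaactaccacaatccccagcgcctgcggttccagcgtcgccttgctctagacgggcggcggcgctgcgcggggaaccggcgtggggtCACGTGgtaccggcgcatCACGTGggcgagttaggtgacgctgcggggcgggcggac
CLCN5 (chrX:50067338-50067587, plus strand): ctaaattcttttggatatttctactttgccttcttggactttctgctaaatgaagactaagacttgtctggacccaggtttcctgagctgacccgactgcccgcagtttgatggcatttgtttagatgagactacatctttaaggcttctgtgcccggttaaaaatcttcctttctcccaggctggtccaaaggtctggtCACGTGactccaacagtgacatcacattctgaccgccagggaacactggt
MCOLN1 (chr19:7522374-7522623, plus strand): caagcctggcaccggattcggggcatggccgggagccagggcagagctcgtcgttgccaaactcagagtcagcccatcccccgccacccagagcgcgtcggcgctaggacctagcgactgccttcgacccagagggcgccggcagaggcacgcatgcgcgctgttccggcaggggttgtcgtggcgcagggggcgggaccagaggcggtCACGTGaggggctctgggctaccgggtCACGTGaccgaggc
For comparison, the same stretch is shown for LAMP1, which held the most matches, for ATP6V1G1, the V1 gene with a match, and for NPC1, the member with the largest rise.
LAMP1 (chr13:113296989-113297238, plus strand): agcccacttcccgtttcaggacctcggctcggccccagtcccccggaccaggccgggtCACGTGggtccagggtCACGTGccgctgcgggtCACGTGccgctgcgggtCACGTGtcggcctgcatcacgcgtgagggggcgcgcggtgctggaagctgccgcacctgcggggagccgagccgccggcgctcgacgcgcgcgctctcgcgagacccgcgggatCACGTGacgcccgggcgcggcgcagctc
ATP6V1G1 (chr9:114587519-114587768, plus strand): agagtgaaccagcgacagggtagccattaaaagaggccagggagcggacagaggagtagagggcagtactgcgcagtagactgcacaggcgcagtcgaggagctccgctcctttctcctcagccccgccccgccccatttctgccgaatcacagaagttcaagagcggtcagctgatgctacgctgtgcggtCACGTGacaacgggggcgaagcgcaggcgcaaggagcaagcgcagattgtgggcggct
NPC1 (chr18:23586507-23586756, minus strand): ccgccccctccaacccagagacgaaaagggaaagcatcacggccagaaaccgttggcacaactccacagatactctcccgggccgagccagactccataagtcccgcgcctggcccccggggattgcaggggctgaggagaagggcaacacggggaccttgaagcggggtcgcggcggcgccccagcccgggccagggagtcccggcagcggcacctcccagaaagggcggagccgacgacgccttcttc
The matches began 57 and 39 bases before the start in ATP6V0B, 50 in CLCN5 and 41 and 14 in MCOLN1. LAMP1 held 6 matches, 5 of them within the stretch printed, and the last began 1 base before the start. In ATP6V1G1, which did not pass, the match began 58 bases before the start. No CACGTG was found in the NPC1 window, which says only that these letters are not there.

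**Figure D2:**
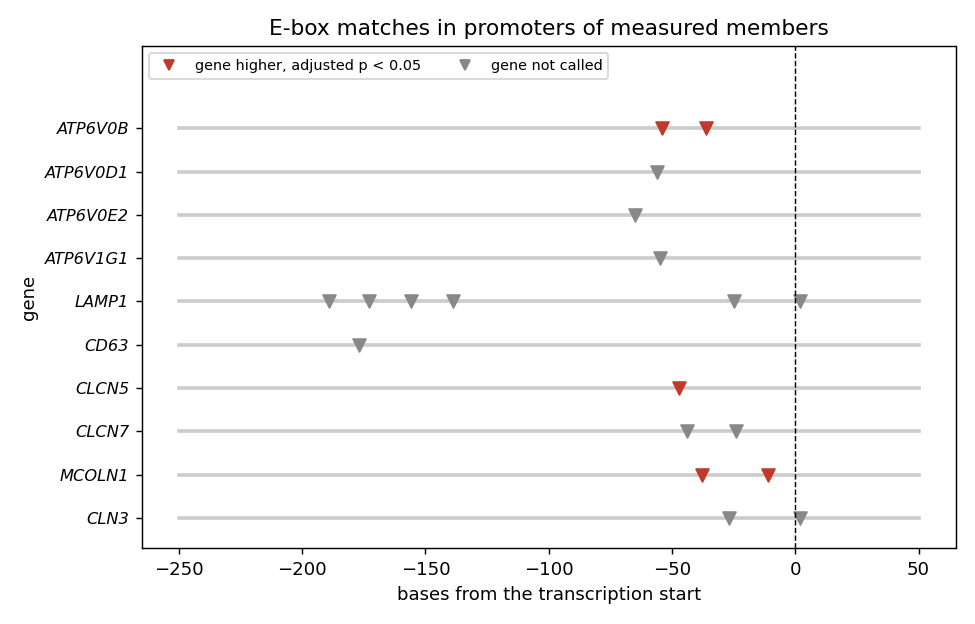
Position of CACGTG matches in the RefSeq window of the 10 measured members that hold one, in bases from the transcription start (dashed line); where a gene has several windows, the one with the most matches is drawn. Matches of ATP6V0B, CLCN5 and MCOLN1, the members that rose, and of 7 members that did not pass lie within 68 bases of the start, other than 4 matches of LAMP1 and the match of CD63.

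In the V0 sector, the small subunit genes ATP6V0B and ATP6V0E1 rose and the a-subunit gene ATP6V0A2 fell, with 4 of 7 not passing. The called share was 42.9%, beside 26.0% of all genes and 38.7% of those above the median level. ATP6V0B, a proteolipid of the rotor ring, was at 11.27, 11.30 and 11.25 in OCRL siRNA cells, against 10.87, 11.03 and 11.02 in control cells. The groups did not overlap, and the rise was 1.23-fold (log2 difference 0.30, SE 0.056, adjusted p = 0.00921). ATP6V0E1, a small hydrophobic subunit beside the ring, was at 13.16, 13.14 and 13.14 in OCRL siRNA cells, against 12.94, 12.84 and 12.88 in control cells, a 1.2-fold rise (0.26, SE 0.046, adjusted p = 0.00718). Every knockdown array again lay above every control array. Of the 6 probe sets of ATP6V0E1, 3 were called higher and the other 3 had log2 differences of 0.10 to 0.27, so all ran the same way. Without _s_at and _x_at probe sets the gene was not called (0.22, adjusted p = 0.0835).

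ATP6V0A2 encodes the a subunit known from the Golgi and endosomes, whose mutation causes a form of cutis laxa. It was at 7.64, 7.71 and 7.56 in OCRL siRNA cells, against 7.89, 7.97 and 7.83 in control cells (log2 difference -0.26, SE 0.060, adjusted p = 0.0222). The groups did not overlap, but its other 2 probe sets were dimmer and not called, and the call was lost without OCRL siRNA replicate 1 (adjusted p = 0.0613) or 3 (0.0763) and without control replicate 1 (0.0501) or 2 (0.0716). With the mean of its probe sets the difference was -0.14 (adjusted p = 0.0673), and without _s_at and _x_at probe sets it was also -0.14 (adjusted p = 0.143). Its paralog ATP6V0A1, the other a subunit measured, was at 8.27, 8.32 and 8.18 in OCRL siRNA cells, against 8.23, 8.25 and 8.35 in control cells. These values overlapped, with a log2 difference of -0.02 and a 95% confidence interval of -0.16 to 0.12.

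The remaining V0 genes did not pass. ATP6V0D1, which couples the ring to the central stalk, was at 10.95, 11.02 and 10.97 in OCRL siRNA cells, against 10.75, 10.87 and 10.87 in control cells (log2 difference 0.15, adjusted p = 0.0914). The ring proteolipid ATP6V0C differed by -0.08 (interval -0.21 to 0.05, adjusted p = 0.349) and its dimmer probe set by -0.16 (adjusted p = 0.0514). ATP6V0E2, the paralog of ATP6V0E1, was dimmer at a mean of 7.62 in OCRL siRNA cells and 7.67 in control cells (-0.04, adjusted p = 0.705).

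None of the 9 measured V1 genes passed limma at an adjusted p under 0.05, and 1 of them, ATP6V1C1, had an unadjusted p under 0.05. The shares over all genes were 26.0% and 38.5%, and over genes above the median level 38.7% and 52.8%. With limma's trend and robust settings 3 V1 genes were called, ATP6V1C1 higher and ATP6V1D and ATP6V1G1 lower. The groups did not overlap in 7 of the 9, 4 higher and 3 lower, beside 44.9% of all genes and 64.4% of those above the median level. The V1 genes were bright, with a median level of 11.19. The ATP-hydrolysing A subunit ATP6V1A was at 11.69, 11.66 and 11.62 in OCRL siRNA cells, against 11.78, 11.67 and 11.61 in control cells (log2 difference -0.03, interval -0.16 to 0.11). Its partner in the catalytic ring, ATP6V1B2, was at 11.01, 11.03 and 10.98 in OCRL siRNA cells, against 10.92, 10.96 and 10.90 in control cells (0.08, interval -0.02 to 0.18, adjusted p = 0.218). Both intervals include 0.

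Among the stalk subunits, which hold the ring still against the membrane, the values ran both ways. ATP6V1C1 was at 10.88, 10.92 and 10.93 in OCRL siRNA cells, against 10.73, 10.82 and 10.80 in control cells (log2 difference 0.13, adjusted p = 0.0993), but its other 2 probe sets had negative differences of -0.03 and -0.15. ATP6V1E1 differed by 0.10 (interval -0.01 to 0.21) and the regulatory subunit ATP6V1H by 0.09 (interval -0.03 to 0.21). ATP6V1G1 differed by -0.10 (interval -0.20 to 0.01), as did the rotor subunit ATP6V1D by -0.09 (interval -0.19 to 0.01). The tissue-restricted isoforms were dim. ATP6V1B1, which serves acid-secreting intercalated cells and is mutated in distal renal tubular acidosis, was at 5.35, 4.86 and 5.03 in OCRL siRNA cells, against 5.35, 4.99 and 5.14 in control cells. ATP6V1G2, known from neurons, was under the lower quartile on each array (-0.18, adjusted p = 0.156).

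The accessory subunits lay close together in the groups. ATP6AP1 was at 10.31, 10.36 and 10.33 in OCRL siRNA cells, against 10.30, 10.35 and 10.31 in control cells (log2 difference 0.01, interval -0.09 to 0.11). ATP6AP2, also known as the prorenin receptor, was at 12.85, 12.82 and 12.88 in OCRL siRNA cells, against 12.97, 12.84 and 12.86 in control cells (-0.04, interval -0.16 to 0.08). Neither was called in any of the alternative settings.

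Of the 13 other membrane proteins measured, there were 5 rises, 1 fall and 7 genes that did not pass. The called share was 46.2%, beside 26.0% of all genes and 38.7% of those above the median level. At an unadjusted p under 0.05 the counts were 8 higher and 2 lower, beside 38.5% of all genes and 52.8% of those above the median level. NPC1, which exports cholesterol from the lysosome, rose most. It was at 11.54, 11.53 and 11.51 in OCRL siRNA cells, against 10.97, 10.94 and 10.96 in control cells, a 1.48-fold rise (log2 difference 0.57, SE 0.039, adjusted p = 1.71e-04). The gap between the groups was far wider than the spread within either, although a dim second probe set at a mean of 5.18 did not move with it (-0.08, adjusted p = 0.657). CTNS, the cystine exporter that is mutated in cystinosis and its proximal tubule failure, was at 7.49, 7.51 and 7.56 in OCRL siRNA cells, against 6.98, 7.20 and 7.11 in control cells (0.42, SE 0.065, adjusted p = 0.00419). SCARB2, which carries glucocerebrosidase to the lysosome, was at 8.89, 8.99 and 8.92 in OCRL siRNA cells, against 8.70, 8.58 and 8.62 in control cells (0.30, SE 0.051, adjusted p = 0.00654). For CTNS and SCARB2 the next brightest probe set was also called higher, at 0.26 and 0.48, and their dimmest was not called.

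The channels and exchangers moved in different directions. CLCN5, the endosomal exchanger of the proximal tubule, was at 6.52, 6.55 and 6.71 in OCRL siRNA cells, against 5.90, 6.06 and 6.14 in control cells. This was a 1.47-fold rise from a low level (log2 difference 0.56, SE 0.079, interval 0.37 to 0.75, adjusted p = 0.00306), read on a single probe set. CLCN3, a relative of CLCN5 on late endosomes, was at 10.56, 10.56 and 10.57 in OCRL siRNA cells, against 10.76, 10.74 and 10.74 in control cells, a small fall (-0.18, SE 0.039, adjusted p = 0.0155). The values hardly varied within a group, and 2 of its 3 other probe sets were also called lower. Its call was lost when OCRL siRNA replicate 2 (adjusted p = 0.0516) or 3 (0.0553) or control replicate 2 (0.0504) or 3 (0.0521) was left out.

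CLCN7, the exchanger of the lysosome itself, was at 9.08, 8.93 and 9.01 in OCRL siRNA cells, against 8.89, 9.02 and 8.91 in control cells, with overlapping values (log2 difference 0.07, interval -0.07 to 0.21). Its beta subunit OSTM1 was at 10.29, 9.96 and 10.12 in OCRL siRNA cells, against 10.44, 10.35 and 10.44 in control cells. The difference of -0.29 missed the threshold (SE 0.086, adjusted p = 0.0553), OCRL siRNA replicate 1 lay nearest to the controls, and without it OSTM1 was called lower (-0.37, adjusted p = 0.0179). Short of the 1.5-fold minimum, OSTM1 was called lower in 8 of 15 alternative settings, with differences of -0.37 to -0.20. MCOLN1, a calcium channel gated by phosphoinositides, was at 7.24, 7.07 and 7.22 in OCRL siRNA cells, against 6.99, 6.86 and 6.87 in control cells (0.27, SE 0.064, adjusted p = 0.0243). The lowest knockdown array lay just above the highest control array, and the call was lost without OCRL siRNA replicate 1 (adjusted p = 0.0767) or 3 (0.0862) and without control replicate 2 (0.0792) or 3 (0.0812). It was also lost after median centring (0.22, adjusted p = 0.0552) and quantile normalisation (0.24, adjusted p = 0.0502).

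**Figure D3:**
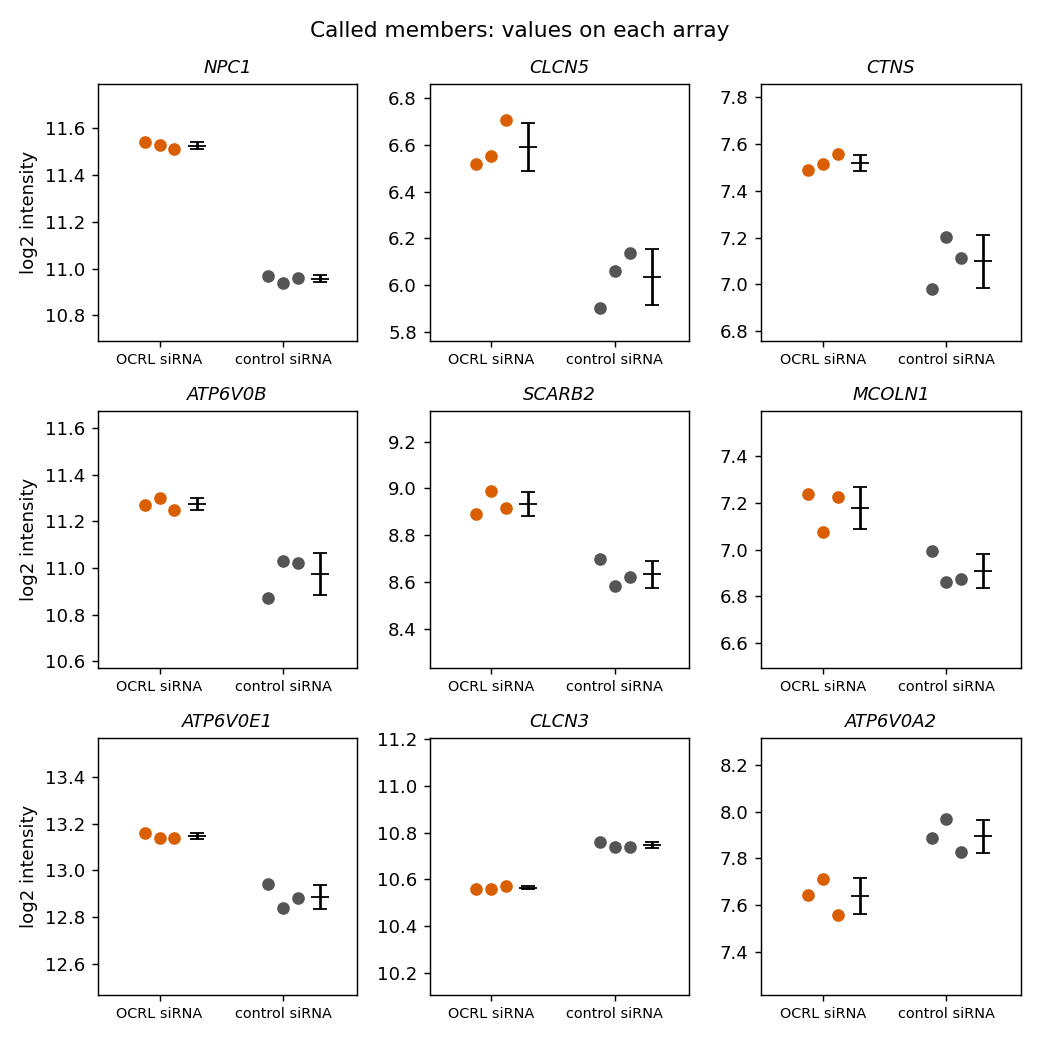
Log2 intensity on each array for the 9 called members, OCRL siRNA left and control siRNA right in each panel; points are single arrays, and dashes with bars are means ± SD (n = 3). Every panel spans 1.1 log2 units, and in each the groups do not overlap, with 7 genes higher and CLCN3 and ATP6V0A2 lower in OCRL siRNA cells.

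The structural proteins of the lysosomal membrane were among the brightest members, and their probe sets did not all give the same call. LAMP1 was at 13.53, 13.45 and 13.49 in OCRL siRNA cells, against 13.39, 13.35 and 13.33 in control cells (log2 difference 0.14, adjusted p = 0.0690). The groups did not overlap on any of its 4 probe sets, and 2 of the dimmer ones were called higher, at 0.17 (adjusted p = 0.0386) and 0.27 (0.0464). LAMP2, which also takes part in chaperone-mediated autophagy, was at 12.05, 12.04 and 12.11 on its brightest probe set in OCRL siRNA cells, against 12.14, 11.79 and 11.85 in control cells (0.14, adjusted p = 0.331). Control replicate 1 was the highest of all 6 arrays there, and without it LAMP2 was called higher (0.25, adjusted p = 0.0173).

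The next LAMP2 probe set was at 11.51, 11.55 and 11.60 in OCRL siRNA cells, against 10.97, 11.03 and 11.03 in control cells, a 1.46-fold difference (log2 difference 0.54, SE 0.046, adjusted p = 3.90e-04). The dimmest was at 10.58, 10.63 and 10.70 in OCRL siRNA cells, against 10.33, 10.10 and 10.13 in control cells (0.45, SE 0.072, adjusted p = 0.00476). LAMP2 is known to have splice forms with different last exons, and which form each probe set reads was not given in the sources used here. CD63, a tetraspanin of late endosomes, was at 13.83, 13.84 and 13.79 in OCRL siRNA cells, against 13.73, 13.68 and 13.70 in control cells (0.12, adjusted p = 0.0906), with no overlap. CLN3, a membrane protein mutated in juvenile Batten disease, was at 8.52, 8.67 and 8.70 in OCRL siRNA cells, against 8.23, 8.35 and 8.59 in control cells (0.24, adjusted p = 0.140). Its dimmer probe set was called higher (0.23, SE 0.041, adjusted p = 0.00738), and so was the brighter one without control replicate 3 (0.34, adjusted p = 0.0342). LAMP3, known from dendritic cells, was under the lower quartile on each array (0.01, interval -0.14 to 0.17).

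Over all 63 member probe sets, 16 were called higher and 4 lower, beside 23.1% of all probe sets (13.2% higher and 9.89% lower). Of the 9 called members, 0 had another probe set called in the opposite direction. This could not be otherwise for ATP6V0B, CLCN5 and MCOLN1, which have a single probe set each. No other probe set of ATP6V0A2 or NPC1 was called in either direction. Only ATP6V0E1, SCARB2, CTNS and CLCN3 had another called probe set, in the same direction. Among the members not called, LAMP1, LAMP2 and CLN3 had another probe set called, each time higher. Probe sets ending in x can read related sequences, and among the members ATP6V0E1, ATP6V1D and CLN3 have such probe sets. They include called probe sets of ATP6V0E1 and the called probe set of CLN3.

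**Figure D4:**
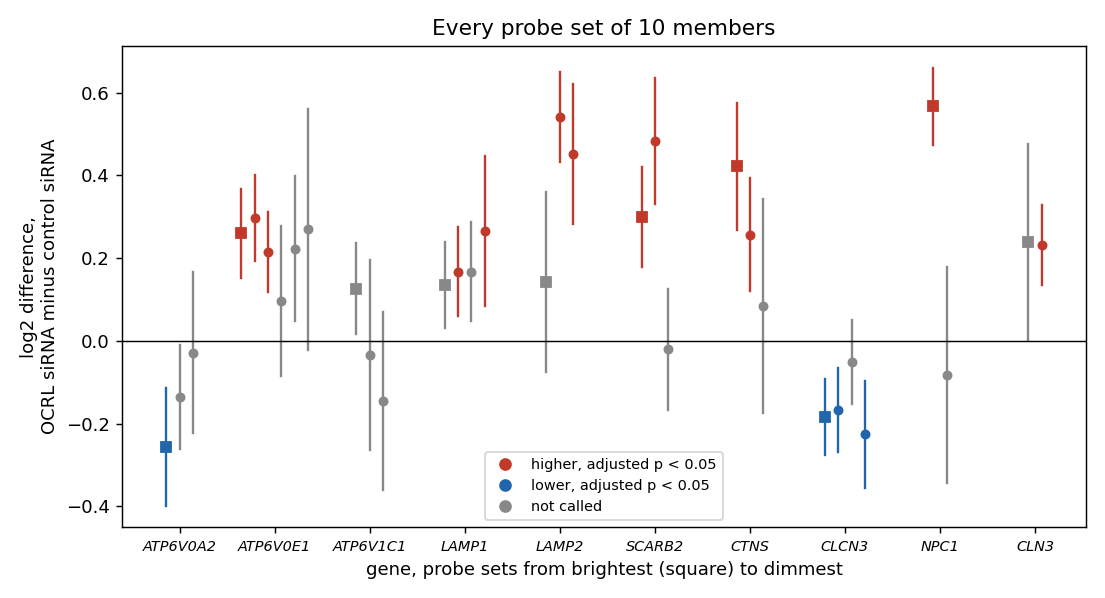
Log2 difference, OCRL siRNA minus control siRNA, with 95% confidence intervals for every probe set of 10 members, from the brightest (square) to the dimmest within each gene. LAMP2 runs from 0.14 on its brightest probe set to 0.54 on the next, whereas the ATP6V0E1 probe sets lie between 0.10 and 0.30.

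Among other genes of the pump, TCIRG1, the a subunit known from osteoclasts, was the only 1 of 7 measured, at a mean of 8.47 in OCRL siRNA cells and 8.31 in control cells (log2 difference 0.16, adjusted p = 0.0604). Of 25 genes for assembly factors and partners of the V-ATPase, 11 were measured, and 2 rose, 3 fell and 6 did not pass (45.5% called, beside 26.0% of all genes and 38.7% of those above the median level). Without OCRL siRNA replicate 1 or 2 or control replicate 3, 3 of the 11 were called. WDR7 and DMXL1, which belong to the rabconnectin complexes that promote joining of V1 to V0, fell. WDR7 was at 7.43, 7.38 and 7.42 in OCRL siRNA cells, against 7.99, 7.79 and 7.93 in control cells (-0.50, SE 0.061, adjusted p = 0.00168). DMXL1 was at 8.21, 8.15 and 8.23 in OCRL siRNA cells, against 8.92, 8.49 and 8.52 in control cells (-0.44, SE 0.114, adjusted p = 0.0328), where control replicate 1 lay above the other controls. Its relative DMXL2 did not pass (0.19, adjusted p = 0.328), nor did ROGDI, another member of these complexes (-0.01, adjusted p = 0.956). OXR1, a TLDc-domain protein, fell as well (-0.23, SE 0.051), and TM9SF4 (0.31, SE 0.047), by 1 of its 2 probe sets, and LAMTOR3 (0.21, SE 0.044), a scaffold of the Ragulator complex that docks mTORC1 at lysosomes, rose.

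Of 60 other lysosomal membrane genes, 45 were measured, and 14 rose, 9 fell and 22 did not pass (51.1% called, beside 26.0% of all genes and 38.7% of those above the median level). Their median log2 difference was 0.07, at a median level of 8.95. Like the other lists, this one was chosen with earlier results of these data known, so its called share is a description only. After LAPTM5, whose level was 8.96, 9.21 and 8.92 in OCRL siRNA cells, against 6.91, 6.96 and 6.29 in control cells (log2 difference 2.31, SE 0.182), the largest rise was that of the tetraspanin CD82. The dimmer LAPTM5 probe set was also called higher, with a smaller difference (1.38, SE 0.181). CD82 was at 10.28, 10.23 and 10.34 in OCRL siRNA cells, against 9.29, 9.17 and 9.20 in control cells (1.07, SE 0.052, adjusted p = 5.61e-05). The metal ion carriers SLC11A2, which moves iron out of endosomes (0.80, SE 0.058), and SLC39A8, a zinc and manganese transporter (0.43, SE 0.041), rose too. So did LITAF, a regulator of endosomal sorting (0.59, SE 0.044), and the endolysosomal cation channel TPCN1 (0.48, SE 0.044). Dimmer probe sets of SLC11A2 (0.18 and -0.04) and a dimmer one of SLC39A8 (-0.14) were not called, whereas their next brightest were called higher (0.71 and 0.47). The dimmest SLC39A8 probe set, under the lower quartile on each array, was also called higher (0.45). DRAM1, a membrane protein induced by p53 (-0.51, SE 0.046), and TMEM106B, a regulator of lysosome position and acidity (-0.49, SE 0.050), fell. CLCN4 (0.35, SE 0.066) and CLCN6 (0.17, SE 0.046), relatives of CLCN5, and MCOLN3 (0.29, SE 0.053), a relative of MCOLN1, were also called higher, and are named here after their values were seen. The next brightest CLCN4 probe set was called higher as well (0.51), and its dimmer ones were not called (-0.01 and 0.08).

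**Figure D5:**
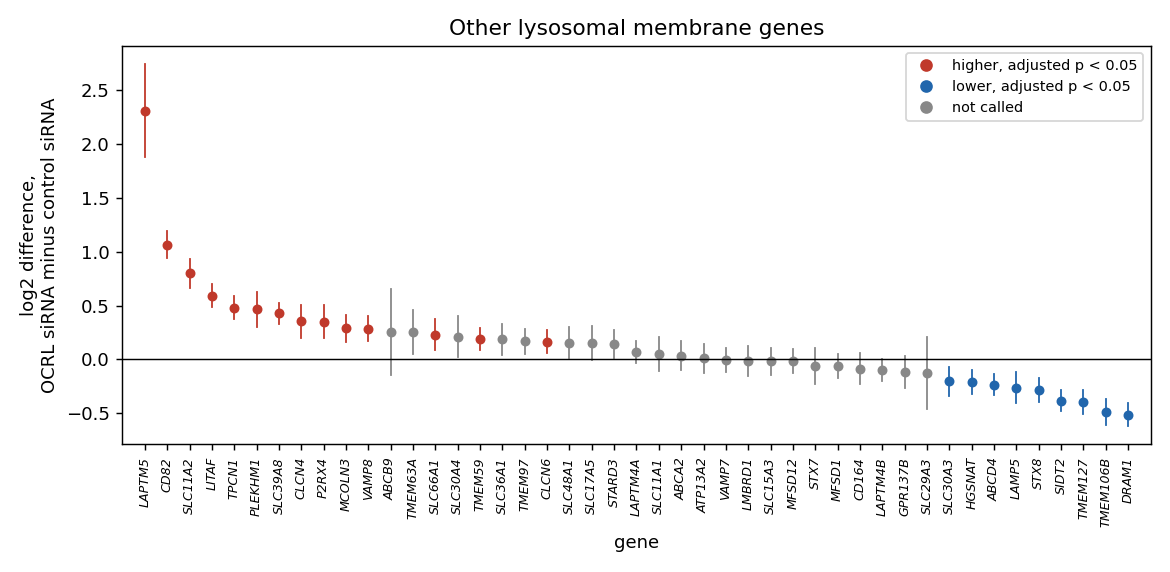
Log2 difference, OCRL siRNA minus control siRNA, with 95% confidence intervals for the 45 measured genes of the list of other lysosomal membrane genes, ordered by difference. They run from 2.31 for LAPTM5 to -0.51 for DRAM1, with 14 called higher and 9 lower.

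Cell identity markers were read beside these genes. Of 22 markers of proximal tubule and renal epithelium, 18 were measured, with LRP2, AQP1, ANPEP and CDH1 under the lower quartile on each array. ANPEP, MME and DPP4 rose, and SLC4A4, PAX8, CDH6, KRT8, KRT19 and EPCAM fell. The summed linear level of the list was 21138 to 21620 in OCRL siRNA cells and 26350 to 27687 in control cells, and its part in the changes of the lysosomal genes was not tested. Intercalated cell markers had 1 of 7 called, CA2 (log2 difference 0.22, SE 0.054), with summed levels of 4041 to 4206 in OCRL siRNA cells and 3408 to 3780 in control cells. CA2 made up most of that sum, and the other 6 markers summed to 302 to 311 in OCRL siRNA cells and 308 to 330 in control cells, with FOXI1, SLC26A4 and KIT under the lower quartile on each array. Macrophage and leukocyte markers had 0 of 11 called by limma and 0 at an unadjusted p under 0.05, with summed levels of 490 to 527 in OCRL siRNA cells and 479 to 540 in control cells, and PTPRC, CD163, TYROBP, LYZ and HLA-DRA under the lower quartile on each array. Of 8 mature dendritic cell markers CD83 was called higher (1.72, SE 0.058), and CCR7, CCL19, CD80 and ITGAX were under the lower quartile on each array. The summed level of the list was 1944 to 1951 in OCRL siRNA cells and 809 to 828 in control cells, whereas the 7 markers other than CD83 summed to 290 to 331 in OCRL siRNA cells and 299 to 347 in control cells. Of 5 osteoclast markers NFATC1 was called higher (0.57, SE 0.052) and DCSTAMP, which lay below the lower quartile, lower (-0.27, SE 0.072), with summed levels of 350 to 386 in OCRL siRNA cells and 315 to 327 in control cells. Without NFATC1 the sums were 177 to 200 in OCRL siRNA cells and 192 to 212 in control cells. Endothelial markers had 0 of 6 called by limma, with 2 at an unadjusted p under 0.05, beside 38.5% of all genes. Called shares were 14.3% for intercalated cell, 12.5% for mature dendritic cell and 40.0% for osteoclast markers. These too stand beside 26.0% of all genes and 38.7% of those above the median level, as do the lists with 0 called.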

How the data were processed

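The deposited table gives log2 intensities per probe set for 6 single-colour Affymetrix arrays. Per the submitters' processing notes, the authors normalised the arrays together with RMA in affy, and the versions used were not given in the sources used here. RMA sets the probe intensities of all arrays to a common distribution, which removes a shift shared by most genes and compresses differences of dim probe sets. Of 22277 probe sets, 62 control probe sets were left out and 22215 tested. The platform annotation gave 1 symbol for 19064 of these, several for 1043 and none for 2108, and only the first kind was named. The Entrez identifier of all 31 measured members matched the same symbol in the RefSeq gene table.

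The two-sided comparison used lmFit and eBayes of limma 3.58.1 (R 4.3.3) with no covariate, and had Benjamini-Hochberg adjustment over all 22215 probe sets and a threshold of 0.05, and the fit was tested on simulated data. Differences are OCRL siRNA minus control siRNA, SE is the moderated standard error and intervals are 95% confidence intervals. Levels of different probe sets depend on the probes, so brightness describes the arrays, not transcript numbers. The number of arrays limits the precision. A summed linear level adds 2 to the power of each log2 value over the genes of a list. The members and lists were chosen with earlier results of these data known. Genes named are OCRL, all measured members and, of the other lists, called genes with the smallest p, up to 8 per list, unless said otherwise. No gene list was tested as a set. Plots used Python 3.11.15 and matplotlib 3.10.9.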

Additional observations from a re-analysis of the deposited data

How the results depend on the processing

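The number of arrays limits the precision, and probe sets near the lower quartile give compressed differences. Counts of called genes moved by more than 1.5 times in these settings. Without _s_at and _x_at probe sets, 2348 of 11813 probe sets and 5 of 24 members were called, 0 of 5 V0 genes, 3 of 8 assembly and partner genes and 14 of 30 other lysosomal membrane genes. This setting also removes genes. With a minimum of 1.5-fold, 806 probe sets and 0 members were called (0 V0 genes, 0 other membrane protein genes among the members and 0 assembly and partner genes, with 4 other lysosomal membrane genes). With trend and robust settings 17 members were called, 12 higher and 5 lower, including 3 V1 genes (ATP6V1C1 higher, ATP6V1D and ATP6V1G1 lower) and 10 of the 13 other membrane proteins. The mean of the probe sets of a gene also called 10 of these 13, and with dim probe sets left out, those below the median, 1 V1 gene was called, ATP6V1C1. TCIRG1 was called higher, as the 1 measured gene of its list, with array weights, the dim filter, the mean of probe sets or trend and robust settings. The cause of these moves was not tested.

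With each array left out in turn, 3576 to 4898 probe sets were called and 6 to 9 members, 2 to 3 V0 genes, 0 V1 genes, 4 to 7 other membrane proteins, 17 to 21 other lysosomal membrane genes and 3 to 5 assembly and partner genes. The last count was 3 without OCRL siRNA replicate 1 or 2 or control replicate 3. The difference of OCRL was -2.05 to -1.99. Whether the replicate numbers pair the samples could not be settled from the values, with 3 arrays per group. The deviations of same-numbered arrays correlated at 0.142, 0.123 and -0.0095. Those of replicates 1 and 2 were the highest between any arrays of the groups, whereas OCRL siRNA replicate 3 correlated best with control replicate 1 (0.040). The fit with the replicate number as a block called 4571 probe sets and 10 members, with OSTM1 added as lower (adjusted p = 0.0403), and gave -2.02 for OCRL.

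Over 453 values of single members under an alternative, 388 kept their sign and their side of the threshold, 18 lost their call, 27 gained one and 20 changed sign, none of the 20 called in either setting. NPC1, CTNS, SCARB2, CLCN5 and ATP6V0B kept their call in every alternative in which they were measured, short of the 1.5-fold minimum. CLCN5 and ATP6V0B have a single probe set each, so the mean or most variable probe set repeats their difference. The difference of NPC1 ranged from 0.24 to 0.57. ATP6V0E1 lost its call without _s_at and _x_at probe sets (0.22) and with its most variable probe set (0.27). Changes of sign were those of ATP6V0A1 with 1 array left out (-0.052 to 0.020), ATP6V0E2 with array weights (0.0099), ATP6V1A (-0.066 to 0.021, above 0 without control replicate 1), ATP6V1B1 (-0.22 to 0.029, above 0 without OCRL siRNA replicate 2 or control replicate 1), ATP6V1C1 with the mean of probe sets (-0.018), without _s_at or _x_at (-0.034) and with the most variable probe set (-0.15), ATP6V1D with the most variable probe set (0.026), ATP6AP1 after median centring (-0.035), quantile normalisation (-0.011) and with 1 array left out (-0.0040 to 0.027), ATP6AP2 with the mean (0.054) or most variable (0.20) probe set, and LAMP3 after median centring (-0.033) and with 1 array left out (-0.026 to 0.066).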
